A study of Mus musculus with 52 samples.

Results

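The microglia marker genes are 9 genes that are commonly used to recognize microglia, the resident macrophages of the brain: Cx3cr1, P2ry12, Tmem119, Csf1r, C1qa, C1qb, C1qc, Aif1 and Trem2. They were listed by symbol and not picked by a rule on measured values, but earlier results of these data were known when they were chosen. All 9 were found among the 33039 genes with reads in the RNA libraries. For each gene the estimated read counts and the TPM (a transcript's length-corrected share of a library) of its transcripts were summed in each of 40 RNA libraries, which form 20 groups of 2 replicates. GFP-positive cells were compared with GFP-negative cells, and bound with input RNA, in each tissue and genotype, so that microglial RNA carried with endothelial cells (ECs) could be set beside the expression of ECs.

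Sorted cells came from adult male mice and 3 tissues: cerebellum, anterior pituitary and posterior pituitary. WT mice carried Tie2-GFP, in which regulatory sequences of the EC receptor Tie2 drive GFP. Stabilized mice were Tie2-GFP; Pdgfb-CreER; BcatEx3fl (Ctnnb1flex3/+), and they received 100 µg of 4HT (4-hydroxytamoxifen) at day 10, after which Cre in ECs removes exon 3 of the beta-catenin gene and leaves a protein that is not degraded. GFP-positive cells are the labeled ECs, and GFP-negative cells are the other live cells of the same papain digest. Each pituitary replicate pooled the glands of 20 to 30 mice aged 30 to 90 days. Besides beta-catenin, the sorted genotypes differ in carrying Cre and in receiving 4HT.

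RiboTag libraries came from the cerebral cortex and the choroid plexus of mice aged 6 to 8 weeks, with 3 to 4 choroid plexi pooled. WT mice were RiboTag; Pdgfb-CreER, and stabilized mice also carried BcatEx3fl, so that both genotypes carried the Cre transgene, and both received 4HT some weeks earlier. RiboTag is a Cre-dependent HA epitope tag on the ribosomal protein RPL22. Bound RNA was recovered with anti-HA antibody from a tissue homogenate, and input RNA is that of the whole homogenate. ATAC-seq peaks of sorted GFP-positive cells were also used, with 2 libraries for each of the same 3 tissues and 2 genotypes.

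Microglia enter the brain early in development and persist there, and border macrophages populate the choroid plexus and the pituitary, which lies outside the blood-brain barrier. Of the 9 genes, CSF1R is the receptor whose ligands CSF1 and IL34 keep microglia alive, CX3CR1 is the receptor for the neuronal chemokine CX3CL1, P2RY12 is a purinergic receptor that guides microglial processes, and TREM2 is a lipid-sensing receptor that signals through TYROBP. TMEM119 is a membrane protein that is, with P2RY12, more restricted to microglia than the rest of the set. C1QA, C1QB and C1QC are the 3 chains of C1q, the first component of the classical complement pathway, and AIF1 (IBA1) is an actin-binding protein; these 4 genes, Cx3cr1, Csf1r and Trem2 are also expressed by other macrophages.

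The 3 C1q genes lie side by side on the minus strand of chromosome 4 (GRCm38), with C1qb at chr4:136880129-136886187, C1qc at chr4:136889804-136893065 and C1qa at chr4:136895917-136898803. The promoters of C1qb and C1qc are shown because open chromatin at these starts differed among the sorted EC libraries (below). They are the RefSeq windows of 300 bases (GRCm38.p6), from 250 bases before the start to 50 after it, at chr4:136886151-136886450 and chr4:136892865-136893164, both read from the minus strand. Capitals mark ACTTCCT, the reverse complement of AGGAAGT, a core sequence bound by ETS factors such as PU.1, the myeloid factor encoded by Spi1.
C1qb: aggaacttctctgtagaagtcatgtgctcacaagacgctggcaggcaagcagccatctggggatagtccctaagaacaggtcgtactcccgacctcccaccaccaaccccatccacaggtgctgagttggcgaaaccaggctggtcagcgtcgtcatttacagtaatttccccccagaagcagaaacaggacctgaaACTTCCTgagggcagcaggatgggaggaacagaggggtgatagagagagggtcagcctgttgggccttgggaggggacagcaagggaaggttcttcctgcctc
C1qc: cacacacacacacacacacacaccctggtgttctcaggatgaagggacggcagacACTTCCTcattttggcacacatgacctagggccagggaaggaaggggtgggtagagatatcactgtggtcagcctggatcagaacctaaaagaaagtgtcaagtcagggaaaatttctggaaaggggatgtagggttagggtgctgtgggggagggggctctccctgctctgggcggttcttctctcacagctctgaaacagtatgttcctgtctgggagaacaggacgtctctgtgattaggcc

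AGGAAGT was searched on both strands in the windows of 6 of the 9 genes, and it was found in 3 of them. C1qa and Tmem119 had no window, and Csf1r was left out of the search. It lay from -53 to -47 relative to the start of C1qb and from -195 to -189 relative to that of C1qc on the strand opposite to the gene, and from -52 to -46 relative to the start of P2ry12 on the same strand. Of 32851 promoter windows of this length, 9.35% held the sequence.

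Library totals ran from 12157485 to 37529274 estimated reads in the 24 sorted libraries and from 6409013 to 21399125 in the 16 RiboTag libraries. Nuclear protein-coding genes took between 34.2 and 43.7% of the deposited TPM in the 4 WT cortex libraries and between 14.1 and 24.9% in the other 12 RiboTag libraries, where short miRNA genes took a larger share. Levels are therefore given as TPM rescaled so that nuclear protein-coding genes have the same sum in every library, a scale chosen after the data were seen. In WT cortex the libraries stand apart in this way, so that their preparation and the genotype cannot be told apart on the deposited scale: the summed TPM of the 9 genes in bound RNA was 2360 and 1605 in WT and 1173 and 1020 in stabilized cortex as deposited, but 5397 and 3693 against 4712 and 4124 after rescaling. One stabilized GFP-positive RNA library is named anterior pituitary in its title but posterior pituitary in its tissue field. It is treated here as replicate 2 of the anterior pituitary. Defining EC genes were in place: the summed level of 10 endothelial genes was 7362 to 13020 in GFP-positive libraries and 7.57 to 155 in GFP-negative libraries.

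The summed level of the 9 genes was highest in RNA bound from cortex and lowest in GFP-positive cells of the WT posterior pituitary. It averaged 4545 in bound RNA of WT cortex and 4418 in that of stabilized cortex, against 185 and 167 in the matching inputs. Next came GFP-positive cells of the stabilized posterior pituitary at 759, bound RNA of stabilized choroid plexus at 713, GFP-positive cells of the stabilized anterior pituitary at 507, GFP-negative cells of the WT cerebellum at 449 and bound RNA of WT choroid plexus at 435. These 5 groups overlapped from each to the next, so their order is not resolved by 2 replicates.

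The 4 lowest groups were the GFP-positive cells of the stabilized cerebellum at 14.9, the WT anterior pituitary at 10 (6.24 and 13.8), the WT cerebellum at 8.12 (3.56 and 12.7) and the WT posterior pituitary at 1.55 (1.49 and 1.6). GFP-positive cells of both stabilized pituitary lobes therefore stood apart from the other 4 GFP-positive groups. Of the 19 pairs of neighbors in the order of all 20 groups, 10 overlapped. In bulk samples, fewer microglia and less RNA per cell cannot be told apart.

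**Figure D1:**
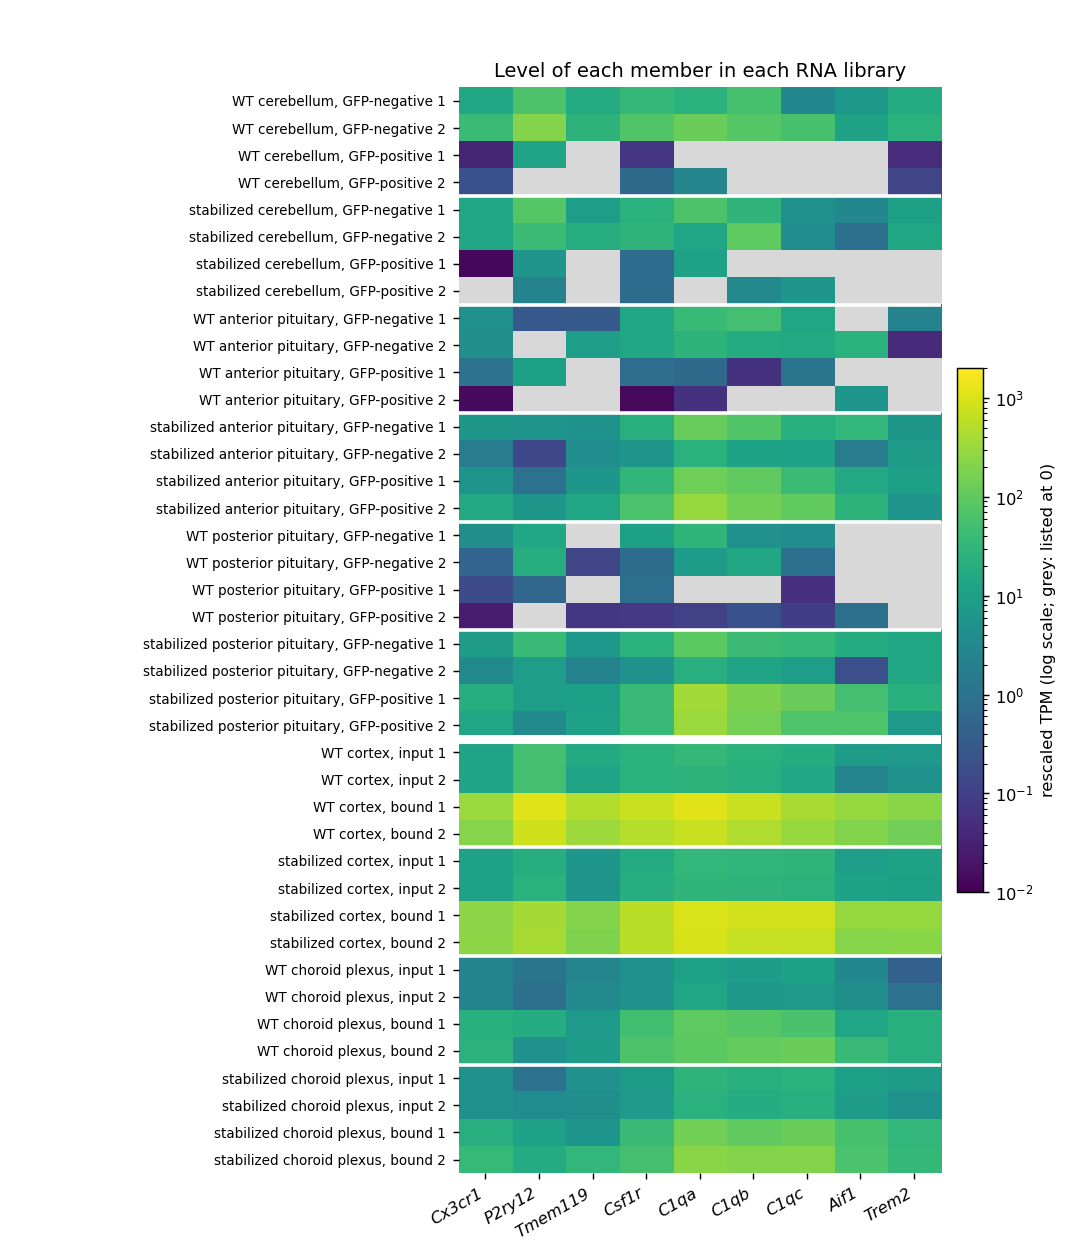
Level of the 9 genes in each of the 40 RNA libraries, as TPM rescaled to nuclear protein-coding genes (color, log scale, with gray where no read was assigned). The 4 libraries of RNA bound from cortex are the brightest, and the 6 WT GFP-positive libraries and the 2 of stabilized cerebellum are mostly gray or dark.

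**Figure D2:**
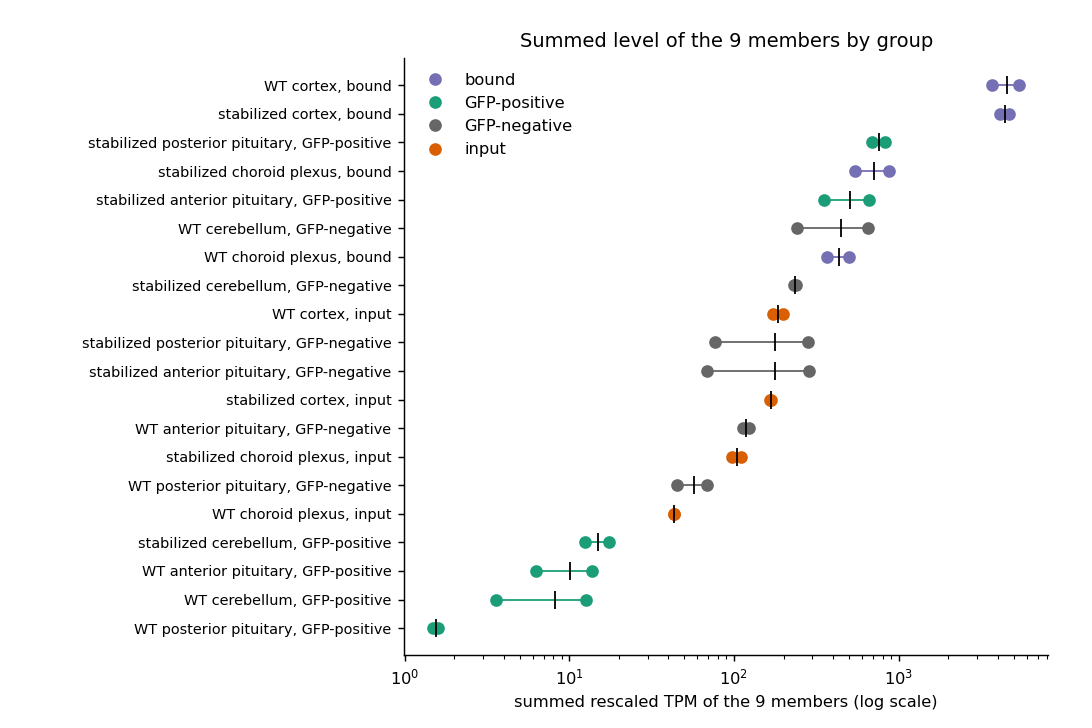
Summed level of the 9 genes (rescaled TPM, log axis) in each library, by group in the order of the group means. Each dot is 1 library and each black tick the mean of 2. The 2 groups of RNA bound from cortex lie at or above 3693, and the 4 lowest groups lie below 18.

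In WT cerebellum, the microglia genes were found in GFP-negative cells and most were at or near 0 in GFP-positive cells. Cx3cr1 was 14.8 and 41.3 in GFP-negative cells and 0.0362 and 0.214 in GFP-positive cells. The receptor Csf1r was 33.4 and 71.5 against 0.0686 and 0.681. Tmem119 was 18.1 and 26.6 and had no read in either GFP-positive library. Both receptors and Tmem119 were thus low in the 2 GFP-positive libraries without exception. C1qb was 58.1 and 80.3 and C1qc was 3.03 and 57.8 in GFP-negative cells, and neither had a read in GFP-positive cells. C1qa was 24.8 and 132, against 0 and 2.54, the latter from 24 reads. P2ry12 did not follow: it was 65.1 and 210 in GFP-negative cells, but 12.5 (131 reads) and 0 in GFP-positive cells, so that replicate 1 held a level that no other gene of the set reached.

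By edgeR's quasi-likelihood test with Benjamini-Hochberg adjustment over all genes, 6 of the 9 were called lower in GFP-positive cells of WT cerebellum (adjusted p under 0.05 and at least 2-fold), where 6.89% of 21324 genes tested were called lower. Cx3cr1 fell by 7.71 ± 1.66 on the log2 scale (± SE, n = 2 per group, adjusted p = 0.00435 in the edgeR fit), Csf1r by 6.94 ± 1.57 (0.0062) and C1qa fell by 5.96 ± 1.81 (0.038). For genes without a read the fold is a lower bound set at 3 reads over the group: Tmem119 was at least 426-fold lower (0.00408), C1qb at least 602-fold (0.000996) and C1qc at least 248-fold (0.0117). Not called were Trem2 (adjusted p = 0.0614), P2ry12 (0.142) and Aif1 (0.156), all of which DESeq2 called. The median log2 difference of the 9 genes was -7.71 as fitted and -6.94 with those genes at their bounds, and it was -0.12 over all genes tested.

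In stabilized cerebellum, 5 of the 9 were called lower in GFP-positive cells, against 9.93% of all genes. Csf1r was 24.8 and 28.3 in GFP-negative and 0.709 and 0.734 in GFP-positive cells, a fall of 5.03 ± 1.43 on the log2 scale (edgeR adjusted p = 0.0194). C1qb fell by 4.96 ± 1.41 (0.0201). Tmem119 was at least 211-fold lower (0.00381) and Trem2 at least 106-fold lower (0.0105). Cx3cr1 had 1 read in the GFP-positive group, a ratio of 1729 with a 95% counting interval of 310 to 68365 (0.00101). C1qc was 4.65 and 3.91 in GFP-negative cells and 0 and 6.16 in GFP-positive cells, so its groups overlapped. The median was -5.03 as fitted and -4.96 at the bounds, against 0.00 over all genes. Without either of the 2 GFP-positive libraries 3 were called. The stabilized-minus-WT difference of the cerebellar fraction contrast was called for 0 of the 9 by edgeR (lowest adjusted p = 0.191, 2 of 9 at an unadjusted p under 0.05), for 2 by DESeq2 and 0 by limma on log2(TPM + 1), and for 0.431% of all genes by edgeR. Without stabilized GFP-positive replicate 1 edgeR called C1qb and C1qc.

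In the WT anterior pituitary, GFP-negative cells held C1q genes, Csf1r and Cx3cr1 but little P2ry12. C1qa was 36.7 and 26.2 in GFP-negative and 0.694 and 0.0591 in GFP-positive cells. C1qb was 52.1 and 18.2 against 0.0607 and 0, and Csf1r was 14.3 and 14.7 against 0.799 and 0.0138. All 3 were higher in each GFP-negative library than in either GFP-positive library. P2ry12 was 0.293 and 0 in GFP-negative cells, whereas it was 10.1 (73 reads) in GFP-positive replicate 1 and 0 in replicate 2. Cx3cr1 had 78 reads in that replicate 1 but a level of 1.05. Levels are divided by an effective length, which there was 250 bases for P2ry12 and 2577 for Cx3cr1. Aif1 was 0 and 24.6 in GFP-negative and 0 and 6.15 in GFP-positive cells, each time with all its reads in 1 library.

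Of the 9 genes, 5 were called lower in GFP-positive cells of the WT anterior pituitary, against 5.87% of all genes. Csf1r fell by 5.19 ± 1.45 (edgeR adjusted p = 0.0244) and C1qa fell by 6.53 ± 1.88 (0.0289). C1qb had 1 read in GFP-positive cells, a ratio of 1207 with a 95% counting interval of 216 to 47714 (0.00195). Tmem119 was at least 83.5-fold lower (0.0114) and Trem2 at least 16.5-fold lower (0.0492), although the GFP-negative level of Trem2 rested on 1 library (2.39 and 0.0457). Cx3cr1 was not called (adjusted p = 0.139). The median was -5.19 as fitted and -4.87 at the bounds, against -0.03 over all genes. Without GFP-positive replicate 2 only 1 of the 9, C1qb, was called.

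In the WT posterior pituitary, 3 of the 9 were called lower in GFP-positive cells, against 7.46% of all genes. C1qa was 29.6 and 8.48 in GFP-negative cells and had 1 read in GFP-positive cells, a ratio of 630 with a counting interval of 113 to 24912 (edgeR adjusted p = 0.0142). C1qb was 4.89 and 14.4 and had 2 reads, a ratio of 128 with an interval of 35.2 to 1065 (0.00972). Cx3cr1 was 4.09 and 0.533 against 0.165 and 0.0268, a fall of 4.46 ± 1.46 (0.0463). P2ry12 was 15.4 and 20.2 against 0.572 and 0 and did not pass. Tmem119, Aif1 and Trem2 had at most 3 reads in either group, so no fold can be given for them. Over the other 6 genes the median was -6.23 with low counts at their bounds or ratios, and over all 9 it was -4.46 as fitted, against 0.00 for all genes. Without GFP-positive replicate 1, 1 of the 9 was called (Csf1r), with DESeq2 6 were called and with limma on log2(TPM + 1) 0.

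The GFP-positive cells of the stabilized pituitary differed from this picture. In the stabilized anterior pituitary, C1qa was 115 and 23.9 in GFP-negative and 137 and 284 in GFP-positive cells, C1qb was 74.2 and 12.1 against 104 and 149, and Csf1r was 20.6 and 6.21 against 30.2 and 63.1. The GFP-positive libraries were the higher ones for each of these 3, without overlap. Cx3cr1 (6.37 and 1.69 against 5.56 and 16) and Aif1 (31.7 and 1.7 against 15.9 and 26.7) overlapped. None of the 9 was called in either direction by edgeR (lowest adjusted p = 0.507, 0 of 9 at an unadjusted p under 0.05), by DESeq2 or by limma on log2(TPM + 1), where 3.16% of all genes were called lower and 5.14% higher. All 9 fitted differences lay above 0, from 0.22 for Aif1 to 1.80 for C1qc, with a median of 1.19 against -0.20 over all genes. Without replicate 2 of the GFP-positive cells, the library with conflicting labels, 0 were called too. Both GFP-positive values lay above both GFP-negative values for 5 of the 9, and for 26.4% of all genes.

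In the stabilized posterior pituitary, C1qa was 92.5 and 20.6 in GFP-negative and 375 and 322 in GFP-positive cells, C1qb was 42.8 and 12.3 against 181 and 158, and Aif1 was 19.3 and 0.197 against 53.1 and 70.9. Csf1r was 24.7 and 4.76 against 37.3 and 37.5. P2ry12 was the exception, at 37.3 and 9.11 in GFP-negative and 8.92 and 3.49 in GFP-positive cells. GFP-positive cells were higher without overlap for 7 of the 9 genes and for 21.9% of all genes, and lower without overlap for P2ry12. None was called by edgeR (lowest adjusted p = 0.275, 0 of 9 at an unadjusted p under 0.05) or DESeq2 and 1 was called higher by limma on log2(TPM + 1), and 5.05% of all genes were called lower and 5.48% higher. The fitted differences ran from -1.63 for P2ry12 to 2.58 for Aif1, with a median of 1.60 against -0.13 over all genes.

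**Figure D3:**
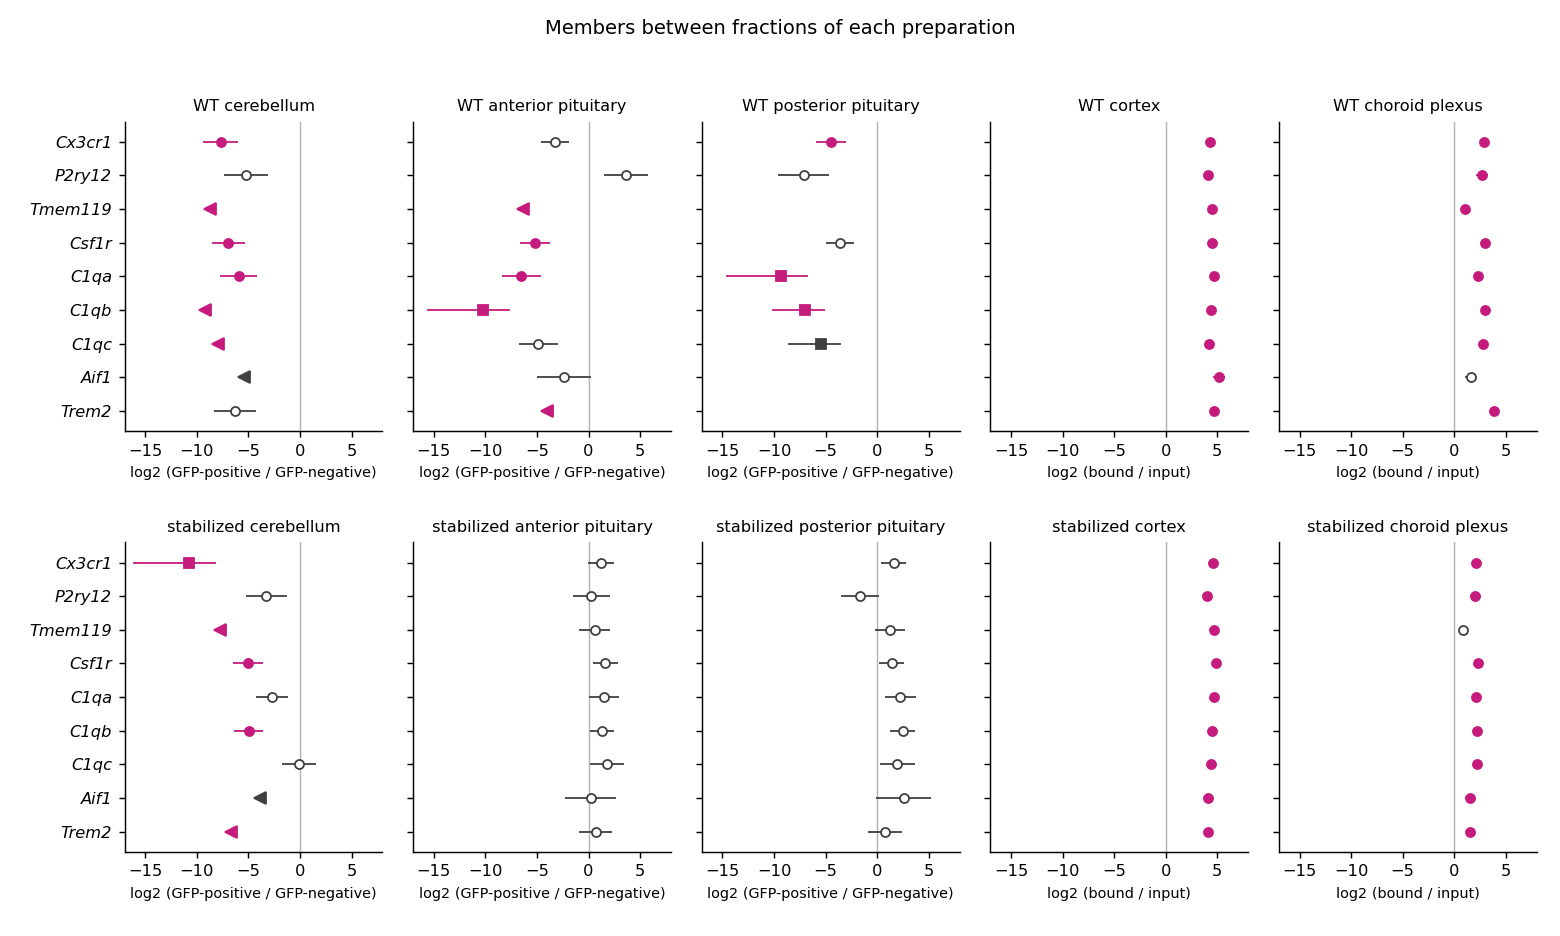
Log2 fold of each of the 9 genes for GFP-positive over GFP-negative cells and for bound over input RNA, in each tissue and genotype (points ± SE, 2 libraries per group). Filled points passed the test, triangles are bounds set at 3 reads, and squares with lines are ratios of counts with a 95% counting interval. Points of both WT pituitary lobes lie mostly below 0, those of the stabilized lobes mostly above it without passing, and all bound-over-input points lie above 0. Tmem119, Aif1 and Trem2 are not drawn in WT posterior pituitary.

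The difference between the genotypes was then tested in GFP-positive cells alone, a comparison that shares these libraries with those above. In the anterior pituitary, C1qb rose from 0.0607 and 0 in WT to 104 and 149 in stabilized cells, a ratio of 3915 with a counting interval of 702 to 154671 (edgeR adjusted p = 0.0211). It was the only gene of the 9 that passed in edgeR, where 0.441% of 17900 genes were called higher, while DESeq2 called 6 of the 9 and limma on log2(TPM + 1) called 5. Without WT replicate 1, edgeR called 3, and without stabilized replicate 1 it called 5. Without stabilized replicate 2, the library with conflicting labels, it called 4. C1qa was 0.694 and 0.0591 against 137 and 284 (8.70 ± 1.92 on the log2 scale, adjusted p = 0.0925), and Csf1r was 0.799 and 0.0138 against 30.2 and 63.1 (6.94 ± 1.46, 0.0712). Tmem119 had no read in WT and 6.36 and 13.4 in stabilized cells, at least 217-fold higher but not called, and Trem2 at least 76-fold, also not called. Groups were apart, with stabilized cells higher, for 8 of the 9 genes and for 28.1% of all genes. At an unadjusted p under 0.05 there were 7 of 9. The median log2 difference was 6.94 as fitted and 6.93 at the bounds, against 0.06 over all genes.

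In the posterior pituitary, 3 of the 9 were called higher in stabilized GFP-positive cells, against 1.26% of all genes, while DESeq2 and limma on log2(TPM + 1) each called 8. Without stabilized replicate 2, edgeR called 5. Csf1r rose from 0.804 and 0.0756 to 37.3 and 37.5, by 6.70 ± 1.44 (edgeR adjusted p = 0.0371). C1qa had 1 read in WT, a ratio of 6672 with a counting interval of 1197 to 263595 (0.0242), and C1qb had 2 reads, a ratio of 2234 with an interval of 618 to 18454 (0.0124). Cx3cr1 was 0.165 and 0.0268 against 19.8 and 12.8 (7.54 ± 1.77, adjusted p = 0.0535), and C1qc had 2 reads against 121 and 68.3 (adjusted p = 0.057). Tmem119 had 1 read, a ratio of 620 with an interval of 111 to 24531, and Aif1 had 3 reads, a ratio of 244 with an interval of 83 to 1185. Neither of these passed, nor did Trem2, at least 136-fold higher. For all 9 genes both stabilized values lay above both WT values, which held for 22.2% of all genes. The median was 8.74 as fitted and 7.93 at the bounds, against 0.01 over all genes, and 8 of 9 had an unadjusted p under 0.05.

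In cerebellar GFP-positive cells none of the 9 differed by the edgeR test (lowest adjusted p = 0.269, 2 of 9 at an unadjusted p under 0.05), DESeq2 or limma, and 0.648% of all genes were called in either direction. Without stabilized replicate 1, C1qb and C1qc were called. Whether the effect in a lobe exceeded that in its GFP-negative cells was tested as the difference of the fraction contrasts, and 0 of the 9 were called in either lobe by edgeR: the lowest adjusted p was 0.0621 in the anterior pituitary (7 of 9 at an unadjusted p under 0.05) and 0.0662 in the posterior pituitary (5 of 9), both for C1qb. DESeq2 called 4 of the 9 in the anterior and 3 in the posterior pituitary, and limma on log2(TPM + 1) called 2 and 1. With 1 library left out, edgeR called 1 of the 9 in the anterior pituitary for 5 of the 8 libraries (C1qb, or Csf1r without WT GFP-positive replicate 1). In the posterior pituitary it called C1qb without WT GFP-negative replicate 1, WT GFP-positive replicate 2 or stabilized GFP-positive replicate 2, and C1qa and C1qb without WT GFP-negative replicate 2. The edgeR test called these differences for 0.113 and 0.441% of all genes. The median difference of the 9 genes was 6.81 in the anterior and 5.50 in the posterior pituitary, against 0.01 and 0.00 over all genes.

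Genes shared by other macrophages were measured in the same cells. Of 12 pan-myeloid genes, 2 were called higher than in WT in the anterior lobe (Laptm5 and Ly86) and 3 in the posterior lobe (Laptm5, Ly86 and Tyrobp, the signaling partner of TREM2). Among all genes, 0.441% were called higher in the anterior and 1.26% in the posterior lobe. The 12 pan-myeloid genes rose in level as well. Their summed level was 83 and 58.8 in WT and 693 and 1467 in stabilized cells of the anterior lobe, and 38.4 and 77.9 against 1917 and 1205 in the posterior lobe. The lysosomal protease gene Ctss was 7.17 and 0.064 in WT and 411 and 792 in stabilized cells of the anterior lobe and did not pass, and Tyrobp had no read in WT and was 147 and 135 in stabilized cells of the posterior lobe. Of 10 further genes of the microglia signature, 0 were called in either lobe by edgeR, with 5 in the anterior and 7 in the posterior lobe at an unadjusted p under 0.05. Among the 10 was Siglech, at 6.5 and 20 in the stabilized anterior lobe.

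Against 0.441 and 1.26% of all genes in the anterior and posterior lobe, 1 of 10 border macrophage genes was called higher in each lobe. This was Ms4a7, at 0.0165 and 0 in WT and 56.8 and 166 in stabilized cells of the anterior lobe, and at 0 and 0 against 287 and 83.4 in the posterior lobe. The summed level of this list was 410 and 223 in WT and 440 and 400 in stabilized cells of the anterior lobe, and 172 and 274 against 550 and 238 in the posterior lobe, with Stab1, which ECs of these organs also expressed (268 and 154 in WT anterior lobe GFP-positive against 1.9 and 4.84 in GFP-negative cells), among the contributors. Of 10 monocyte and neutrophil genes 0 were called by edgeR in either lobe (1 in the anterior and 2 in the posterior lobe at an unadjusted p under 0.05), and their summed level was 10.4 and 9.43 in WT against 64.1 and 38.6 in stabilized cells of the anterior lobe and 36.2 and 10.2 against 74.7 and 45.4 in the posterior lobe. The monocyte receptor gene Ccr2 had no read in WT and was 4.77 and 7.53 in the stabilized anterior and 11.2 and 8.67 in the stabilized posterior lobe. Most of the summed level in stabilized cells of each lobe came from other genes of this list.

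All 10 endothelial genes had reads in each of these libraries. Their summed level was 8763 and 11945 in WT and 8676 and 9183 in stabilized cells of the anterior lobe, so the groups overlapped. In the posterior lobe it was 13020 and 12657 in WT and lower, at 7874 and 7362, in stabilized cells. There 1 of the 10 was called higher (Cldn5, a tight junction gene, by 3.10 ± 0.48) and 2 lower, Kdr (-1.89 ± 0.32) and Pecam1 (-1.07 ± 0.24, edgeR adjusted p = 0.0476), against 1.26% of all genes higher and 0.559% lower. The part of macrophages, monocytes or a changed share of ECs in the result was not tested.

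Open chromatin was measured in separate GFP-positive samples, and peaks within 1 kb of an annotated start were counted (fold enrichment over 2 and -log10 q over 2). None of the 9 genes had such a peak in any of the 6 WT libraries or the 2 of stabilized cerebellum, whereas all 10 endothelial genes had a peak in both replicates of all 6 groups. In the stabilized anterior pituitary, C1qa had a peak in both replicates, with fold enrichments of 3.66 and 4.94, as did C1qb, with 3.17 and 5.2. C1qc had a peak in replicate 1 only (3.66). With a fold enrichment over 4 and -log10 q over 5 the number of genes with a peak in both replicates was 0, and within 5 kb of a start it was 5 in the stabilized and 3 in the WT anterior pituitary. The C1qb peak of replicate 1, at chr4:136886113-136886451, spanned the whole promoter window printed above.

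In the stabilized posterior pituitary, peaks at the 9 genes were found in replicate 2 only: C1qa (5.18), C1qb (4.53), Tmem119 (3.79), Cx3cr1 (3.27) and C1qc (2.94). The Cx3cr1 peak, at chr9:120068165-120068378, did not cover the outermost annotated start but overlapped the RefSeq promoter window at chr9:120068247-120068546. Replicate 2 had 51666 peaks and replicate 1 had 36358, while the WT posterior pituitary libraries had 26402 and 25684 and the WT anterior pituitary libraries, in which no member had a peak, had 45518 and 60243. Peaks in both replicates were present at 2 of 9 genes (22.2%) in the stabilized anterior pituitary and at 58.3% of all protein-coding genes. Among the pan-myeloid genes they were present at 6 of 12 in the stabilized and 3 of 12 in the WT anterior pituitary. Peak presence was compared as counts and not tested.

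In cortex, the RNA bound by tagged ribosomes held far more of each of the 9 genes than the input did. Csf1r was 24.7 and 24.1 in input and 733 and 514 in bound RNA of WT cortex. Cx3cr1 was 12.6 and 12.7 against 322 and 216, and P2ry12 was 50.9 and 51.3 against 1081 and 822. The surface protein gene Tmem119 was 17.3 and 12.2 against 483 and 327, and Trem2 was 7.43 and 5.15 against 228 and 141. For all 5 the lowest bound value lay more than 10 times above the highest input value. C1qa was 33.5 and 27 in input and 1153 and 708 in bound RNA, C1qb was 24 and 22.6 against 710 and 463, and C1qc was 19.3 and 14.3 against 399 and 304. Aif1 was 8.63 and 2.63 against 289 and 197, and its 2 inputs had the largest ratio to each other among the 9 genes.

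All 9 genes were called higher in bound than in input RNA of WT cortex, where 7.45% of 18226 genes were called higher. The log2 differences ran from 4.08 for P2ry12 to 5.21 for Aif1, with edgeR adjusted p between 4.54e-07 and 6.91e-05. Their median was 4.47, against -0.33 over all genes. All 9 were called in stabilized cortex as well, against 10.1% of all genes, from 3.98 for P2ry12 to 4.86 for Csf1r (highest adjusted p = 9.65e-05), with a median of 4.52 against -0.30. There Csf1r was 18.6 and 20.3 in input and 564 and 536 in bound RNA, and Cx3cr1 was 10.6 and 10.8 against 245 and 240. The difference of this contrast between the genotypes was called for 0 of the 9 by edgeR (lowest adjusted p = 0.595, 0 of 9 at an unadjusted p under 0.05), by DESeq2 and by limma, and for 0.604% of all genes by edgeR.

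Most further microglia signature genes and all pan-myeloid genes were called higher in bound RNA of cortex too. Among all genes, 7.45% were called higher in WT and 10.1% in stabilized cortex. Of the 10 further microglia signature genes, 9 were called higher in bound RNA of WT cortex (median 4.52), from Sall1, a microglial transcription factor, at 2.60 to Ltc4s at 5.14, and 9 in stabilized cortex (median 4.40). All 12 pan-myeloid genes were called in both genotypes, with medians of 4.44 and 4.18. The 10 endothelial genes were all called, with medians of 4.81 in WT and 5.61 in stabilized cortex. Of the border macrophage genes that were tested, 1 of 9 (Stab1) was called in each genotype. The summed level of the neuronal list was 3562 and 4588 in bound and 8129 and 8251 in input RNA of WT cortex, and that of the astrocyte list was 1774 and 2470 against 3643 and 3517, so that neither list was higher in bound RNA. Whether the microglia genes in bound RNA come from tagged ribosomes in microglia or from untagged RNA was not tested.

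In the choroid plexus the bound-over-input differences were smaller. Csf1r was 4.92 and 5.08 in input and 48.7 and 64.9 in bound RNA of the WT choroid plexus, C1qb was 8.07 and 6.63 against 79.3 and 113, and Trem2 was 0.433 and 0.958 against 23.3 and 21.9. Tmem119 was 2.55 and 3.26 against 7.25 and 8.27, and P2ry12 was 1.09 and 0.891 against 19.5 and 4.74. Among the 9 genes, bound and input values were closest for Tmem119. Of the 9, 8 were called higher in WT, against 8.35% of all genes, from 1.04 for Tmem119 to 3.88 for Trem2, with a median of 2.83 against 0.00. Aif1 was not called (1.64 ± 0.57, edgeR adjusted p = 0.0597), and Tmem119 passed narrowly (edgeR adjusted p = 0.0498). DESeq2 called 9, limma on log2(TPM + 1) called 8 and edgeR on the compared groups alone called 7.

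In the stabilized choroid plexus 8 of the 9 were also called, against 9.18% of all genes. The largest difference was that of Csf1r (2.3), at 7.56 and 6.91 in input and 39 and 55.9 in bound RNA, and Tmem119 was not called (0.84 ± 0.33, edgeR adjusted p = 0.0869). The median was 2.09, against 0.00 over all genes, and without bound replicate 2 the number called was 5. The genotype difference of this contrast was called for 0 of the 9 by edgeR (lowest adjusted p = 0.195, 3 of 9 at an unadjusted p under 0.05), DESeq2 and limma, and 0.318% of all genes were called. Border macrophage genes were called in the choroid plexus for 4 of 9 tested in each genotype, in WT among them Mrc1 (2.83 ± 0.59) and Stab1 (2.84 ± 0.25). There 8.35% of all genes were called higher in WT and 9.18% in stabilized mice. Of the further microglia signature genes 5 of 10 were called higher in WT, while 7 were higher and 1, Ltc4s, lower in the stabilized choroid plexus, where 8.83% of all genes were called lower.

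The tissues were compared within the WT bound libraries. All 9 genes were called higher in cortex than in choroid plexus, against 15.8% of 16764 genes, from 1.70 for C1qc to 5.50 for P2ry12, with a highest adjusted p of 0.00799 by edgeR and a median of 3.32 against 0.02. In the inputs, 4 of the 9 were called higher in cortex, against 26.2% of 16072 genes: Cx3cr1 (1.92), P2ry12 (3.94), Csf1r (1.64) and Trem2 (2.15). The bound-over-input difference itself was larger in cortex for 6 of the 9, against 5.94% of all genes, with values of 3.56 ± 0.78 for Aif1 (edgeR adjusted p = 0.0093), 3.43 ± 0.46 for Tmem119 (0.000506), 2.39 ± 0.35 for C1qa (0.000867), 1.45 ± 0.30 for Csf1r (0.00697), 1.43 ± 0.34 for Cx3cr1 (0.0154) and 1.35 ± 0.41 for C1qb (0.0474). It did not pass for P2ry12 (1.36), C1qc (1.41, adjusted p = 0.0753) or Trem2 (0.86). The median was 1.43 against -0.22. Without WT choroid plexus input replicate 2 the difference was called for 3 of the 9, with Aif1, C1qb and Cx3cr1 lost.

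Among sorted WT GFP-negative cells, P2ry12 distinguished the cerebellum from the anterior pituitary, at 65.1 and 210 against 0.293 and 0 (9.62 ± 1.77, edgeR adjusted p = 0.00387), and was the only 1 of the 9 called by edgeR, against 5.49% of 19600 genes (DESeq2 also called Cx3cr1). The cerebellum exceeded the posterior pituitary for 3 of the 9, against 6.37% of all genes: Cx3cr1 by 3.43 ± 0.95 (0.0378), Tmem119 by a ratio of 576 with a counting interval of 159 to 4764 (0.0129), and Trem2 by at least 172-fold (0.0198). DESeq2 called 5, and none of the 9 was called when only the 4 libraries compared were fitted. Between the pituitary lobes 0 of the 9 were called by edgeR (4 of 9 at an unadjusted p under 0.05), 4 by DESeq2 and 0 by limma on log2(TPM + 1), against 1.67% of all genes, and P2ry12 was higher in the posterior lobe by 6.91 ± 1.61 on the log2 scale without passing (adjusted p = 0.0527). It passed without anterior replicate 1 or without either posterior replicate, and then 1 or 2 of the 9 were called. P2ry12 was thus near 0 in the WT anterior lobe, and present in the posterior lobe, which derives from the brain, at 15.4 and 20.2.

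Between tissues of WT GFP-positive cells 0 of the 9 were called by edgeR, DESeq2 or limma, in cerebellum against anterior pituitary (1 of 9 at an unadjusted p under 0.05), cerebellum against posterior pituitary (0 of 9) or between the lobes (0 of 9), against 5.25, 4.4 and 0.994% of all genes called in either direction. The difference of the fraction contrast between WT tissues was called by edgeR for 0 of the 9 in each of the 3 sorted pairs, with 2 of 9 at an unadjusted p under 0.05 in each. DESeq2 called 1, 2 and 1 and limma on log2(TPM + 1) called 1, 2 and 0 in the order given next. In edgeR these differences were called for 2.97% of all genes in cerebellum minus anterior pituitary, 3.73% in cerebellum minus posterior pituitary and 0.839% in anterior minus posterior pituitary. Each of these counts became 1 when 1 library was left out: P2ry12 without cerebellar GFP-positive replicate 1 or anterior GFP-positive replicate 2, Tmem119 without posterior GFP-negative replicate 2 or GFP-positive replicate 1, and P2ry12 without anterior GFP-positive replicate 2, in the same order.

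Outside the pituitary GFP-positive cells, none of the 9 was called between stabilized and WT mice by edgeR. In GFP-negative cells this held in cerebellum (0 of 9 at an unadjusted p under 0.05, 0.76% of all genes called), the anterior pituitary (1 of 9, 0.0408%) and the posterior pituitary (4 of 9, 0.133%). DESeq2 called 0, 1 (P2ry12) and 2 (Tmem119 and Trem2), and limma on log2(TPM + 1) called 0 in each. Without stabilized GFP-negative replicate 2 edgeR called P2ry12 in the anterior pituitary, and without WT GFP-negative replicate 1 it called Csf1r and Cx3cr1 in the posterior pituitary. In that lobe, Trem2 had no read in WT and was 14.1 and 14.2 in stabilized cells, and Tmem119 had 2 reads in WT and was 6.74 and 2.36.

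In bound RNA of the cortex 0 of 9 were called by edgeR or DESeq2 and 1 by limma on log2(TPM + 1) with deposited TPM. By edgeR 6.31% of all genes were called, and 1 of 9, C1qc, had an unadjusted p under 0.05. P2ry12 was 1081 and 822 in WT and 385 and 414 in stabilized cortex, without overlap, and its fitted difference was -0.80 ± 0.50 (adjusted p = 0.381). C1qc was 399 and 304 against 850 and 690, also without overlap, with a fitted difference of 0.91 ± 0.37 (adjusted p = 0.176). Tmem119 was 483 and 327 against 205 and 187, but its fitted difference was 0.15. The fit uses read counts, whereas the levels are also divided by a length, and the average effective length assigned to Tmem119 was 806 and 780 bases in WT and 1549 and 1740 in stabilized bound libraries. With an offset for that length the difference of Tmem119 was -0.84 (adjusted p = 0.465) in bound RNA and -1.08 in input RNA, where it passed (adjusted p = 0.0453).

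In input RNA of the cortex 0 of 9 were called by edgeR or DESeq2 and 5 by limma on log2(TPM + 1), against 11.8% of all genes, with 2 of 9 at an unadjusted p under 0.05 (C1qc 0.78 ± 0.26, adjusted p = 0.0638), and Aif1 and C1qc were called without WT replicate 1. These limma fits used deposited TPM, on which preparation and genotype cannot be told apart in cortex. Nuclear protein-coding genes held 34.2 and 38.3% of deposited TPM in WT and 14.1 and 14.3% in stabilized cortex input. In bound RNA of the choroid plexus 0 of 9 were called by edgeR, DESeq2 or limma (2 of 9 at an unadjusted p under 0.05), against 0.853%. In its input, all 9 fitted differences lay above 0, with a median of 1.05 against -0.03 over all genes. Of the 9, 6 had an unadjusted p under 0.05, but 0 were called by edgeR, against 0.106% of all genes, 5 by DESeq2 and 0 by limma. C1qb was 8.07 and 6.63 in WT and 21.5 and 18.9 in stabilized input (1.32 ± 0.19, adjusted p = 0.0855), Trem2 was 0.433 and 0.958 against 8.15 and 5.3 (3.20 ± 0.49, 0.0931) and Cx3cr1 was 2.36 and 2.32 against 5.17 and 4.73 (1.0 ± 0.16, 0.11).

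The make-up of the summed level differed between groups. The 3 C1q genes took 35.4 and 41.2% of it in GFP-negative cells of the WT cerebellum and 41.9 and 39.9% in bound RNA of WT cortex. They took 63.4 and 67.2% in bound RNA of the WT choroid plexus, and 80.4 and 80.2% and 81.6 and 79.4% in GFP-positive cells of the stabilized anterior and posterior pituitary. P2ry12 and Tmem119 together took 34.3 and 36.1% in GFP-negative cells of the WT cerebellum and 29 and 31.1% in bound RNA of WT cortex. Their share was 7.21 and 2.6% in bound RNA of the WT choroid plexus and between 2.04 and 2.99% in GFP-positive cells of both stabilized pituitary lobes. In GFP-negative cells of the stabilized posterior pituitary it was 15.7 and 15%, above both GFP-positive values of that lobe. In GFP-negative cells of the anterior pituitary it was 3.76 and 5.92% in stabilized and 0.49 and 8.19% in WT mice, and the C1q genes took 73.6 and 68.4% and 82.3 and 53.6%.

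In bound RNA of stabilized cortex the share of P2ry12 and Tmem119 was 12.5 and 14.6%, and that of the C1q genes 58 and 55.9%. Over read counts, which carry no length, P2ry12 and Tmem119 took 18.6 and 19.6% in WT and 13 and 15% in stabilized bound RNA, and the C1q genes 23.5 and 21.5% against 28.7 and 26.2%, so that the genotypes lay closer together on that scale. Over read counts the share of P2ry12 and Tmem119 was between 3.38 and 4.02% in the GFP-positive cells of the stabilized pituitary lobes and 25.5 and 25.8% in GFP-negative cells of the WT cerebellum. These shares are descriptions and were not tested.

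**Figure D4:**
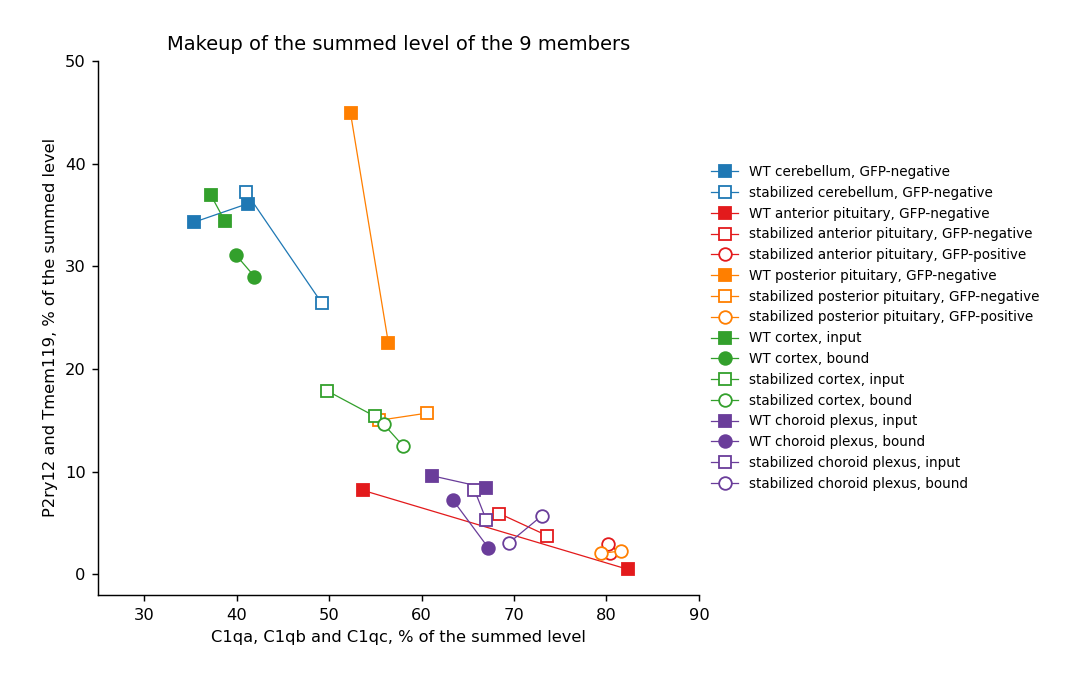
Share of the summed level (percent of rescaled TPM) taken by C1qa, C1qb and C1qc (horizontal) and by P2ry12 and Tmem119 (vertical). Groups are shown in which the summed level was at least 40 in both libraries. Filled symbols are WT and open symbols stabilized, circles GFP-positive or bound and squares GFP-negative or input, and a line joins the 2 libraries of a group. GFP-positive cells of both stabilized pituitary lobes lie at about 80% C1q and under 3% P2ry12 and Tmem119.

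Of 15 ligands, signaling partners and transcription factors tied to these receptors, 10 were called higher and 1 lower in bound than in input RNA of WT cortex (median 3.66), against 7.45% of all genes higher and 4.25% lower. The signaling partners Tyrobp (5.07 ± 0.35), Inpp5d (4.38 ± 0.36), Plcg2 (3.95 ± 0.39) and Syk (3.66 ± 0.61) rose, as did the transcription factor genes Runx1 (4.52 ± 0.42), Spi1 (4.03 ± 0.37) and Irf8 (3.97 ± 0.37). The ligand gene Cx3cl1, a neuronal product, was lower (-1.11 ± 0.33, edgeR adjusted p = 0.0374), and the CSF1R ligand genes Csf1 and Il34 did not pass. Tgfb1, whose product maintains microglial identity, was called higher in bound RNA of WT cortex (4.05 ± 0.39) and choroid plexus (2.53 ± 0.38), and also in GFP-positive cells of the WT cerebellum (3.02 ± 0.68), anterior pituitary (4.35 ± 0.73) and posterior pituitary (5.94 ± 0.78). Tgfb1 was therefore higher in sorted ECs than in GFP-negative cells of all 3 WT tissues. Csf1 was called higher in GFP-positive cells of the WT anterior (3.10 ± 0.59) and posterior pituitary (2.66 ± 0.58).

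Of 12 other genes of the classical complement pathway and its receptors and regulators, 4 were called higher and 1 lower in bound RNA of WT cortex, against the same 7.45 and 4.25% of all genes. The anaphylatoxin receptor genes C3ar1 (3.40 ± 0.53) and C5ar1 (3.71 ± 0.84) and the protease gene C1s1 (4.52 ± 1.22) were among those that rose, and the regulator gene Cd55 fell by 1.05 ± 0.21 on the log2 scale. In GFP-positive cells of WT cerebellum, 2 of the 12 were called lower (C2 and C3ar1), against 6.89% of all genes.

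The genes whose deposited TPM over the 20 groups most resembled the mean of the 9 were Ly86 (Pearson r = 0.966), Havcr2 (0.963), Nckap1l (0.955), Clec5a (0.951), Pld4 (0.951), Hpgds (0.950), Csf3r (0.950), Itgam (0.949), Il10ra (0.943) and Fcgr1 (0.941), of 12697 genes compared. The 20 groups share tissues and animals between fractions, and all 10 genes were highest in bound RNA of WT cortex. How far the bound cortex groups set the coefficient was not tested. Within the set, Csf1r (0.988) and Cx3cr1 (0.984) followed the mean of the other members most closely and P2ry12 (0.743) least. On the rescaled levels 8 of the 10 genes were again in the list, and the value for P2ry12 was 0.714.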

How the data were processed

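RNA-seq reads had been quantified by the authors with Salmon 0.10.2 on the Ensembl 92 transcriptome (GRCm38), corrected for biases of sequence, position and GC content, and the deposited tables give estimated counts and TPM per transcript of each library. Kallisto 0.44.0 and deepTools are also named in the submitters' processing notes. Both values were summed to genes here. ATAC-seq reads had been aligned with Bowtie2 2.3.2 and cleared of duplicates with Picard. The authors called peaks in each library with MACS2 2.1.1.20160309, and the deposited lists give a fold enrichment (a ratio to the local background), a score and -log10 p and q values. The score and p were not used.

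Rounded counts were tested with edgeR 4.0.16 (R 4.3.3; quasi-likelihood F test, TMM, filterByExpr, Benjamini-Hochberg over all genes tested, 1 coefficient per group). GFP-positive against GFP-negative and bound against input were fitted over all 24 sorted or all 16 RiboTag libraries, and genotypes and tissues within 1 fraction. A call needed an adjusted p under 0.05 and at least 2-fold, and the SE was taken from the F statistic. The procedure was tested on simulated counts. Alternatives were DESeq2 1.42.0, limma 3.58.1 on log2(TPM + 1) or log2(TPM + 0.1), RLE factors, no filter, a length offset, a replicate block, the compared groups alone and each of 40 libraries left out. Between fractions, a block within each preparation was also used. The limma fits used deposited and not rescaled TPM, so the share of nuclear protein-coding genes in each library enters them. In these fits a difference is on the log2(TPM + pseudocount) scale, which understates changes of low genes. Levels are TPM rescaled to 21804 nuclear protein-coding genes. Intervals and the floor of 3 reads cover counting error only. Reads had no molecular identifiers. Counts at C1qb and C1qc, and at other neighbors, rest on the assignment of reads by Salmon.

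The 9 genes and the other lists were chosen with earlier results of these data known. All 9 were followed in every comparison. In the other lists, counts, medians and the extreme members were given, and further list genes were named for their role after their values were seen. Some members of these lists are not reported here. The 10 genes of like pattern had to reach 10 TPM in at least 1 group. Replicates were separate samples of mouse tissue, pooled over animals for the pituitary and choroid plexus, so p-values measure the spread between these samples. There were 0 other per-sample columns. Scripts ran in Python 3.11.15 (pandas 2.3.3, numpy 2.4.6, scipy 1.17.1, matplotlib 3.10.9).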

Additional observations from a re-analysis of the deposited data

Results flagged for a closer look

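In WT RiboTag libraries the bound-over-input difference was tested against itself between 2 tissues, and it was larger in cortex than in choroid plexus for 6 of the 9 genes. On the log2 scale the difference between the tissues was 3.56 for Aif1, 3.43 for Tmem119, 2.39 for C1qa, 1.45 for Csf1r, 1.43 for Cx3cr1 and 1.35 for C1qb. Without WT choroid plexus input replicate 2, Aif1, C1qb and Cx3cr1 were no longer called and the count was 3.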

How the results depend on the processing

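None of the calls of the 9 genes changed direction under any alternative. Of 53 calls between fractions, DESeq2 kept 53, no filter 51, the length offset 49, limma 46 (log2(TPM + 1)) or 50 (log2(TPM + 0.1)) and the compared groups alone 39 of 51. RLE factors moved no count past 1.5 times. The cause of the changes below was not tested, and 2 libraries per group limit every test.

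With DESeq2 the number called became 6 in WT posterior pituitary fractions (3 in edgeR), 6 and 8 for stabilized against WT GFP-positive cells of the anterior and posterior pituitary (1 and 3), and 2 and 5 for WT GFP-negative cerebellum against the lobes (1 and 3). With no filter these were 6, 6 and 6, and 3 and 6, and 2 were called higher in stabilized posterior pituitary GFP-positive cells (0). With limma on log2(TPM + 1) they were 3 for WT anterior and 0 for WT posterior pituitary fractions, 1 higher in stabilized posterior pituitary, 5 and 8 for the genotypes, 2 for GFP-negative cerebellum against the anterior lobe and 8 for WT cortex against choroid plexus input (4). With limma on log2(TPM + 0.1) they were 4 and 7 for the genotypes, 2 against the anterior lobe, 9 in input and 3 for the cortex-minus-choroid plexus difference (6). With the compared groups alone they were 2 for stabilized cerebellum (5), 2 for WT anterior (5) and 0 for WT posterior pituitary fractions, 2 higher in stabilized posterior pituitary, 2 for the anterior genotypes, and 2 and 0 for GFP-negative cerebellum against the lobes. Both limma fits used deposited TPM. Nuclear protein-coding genes held 34.2 and 38.3% of deposited TPM in WT cortex input and 15.2 and 16.4% in WT choroid plexus input.

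In the 8 other genotype comparisons, with 0 calls by edgeR, calls numbered 8 with DESeq2, 11 with no filter, 1 with the length offset, and 6 and 5 with limma on deposited TPM. In the 4 other tissue comparisons (0) they numbered 4 with DESeq2 and 4 with no filter. In the 8 other differences of the fraction contrast (0) they numbered 13, 20, and 6 and 4 with limma.

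Same-numbered replicates were not taken as pairs in the main fit, although fractions of a preparation come from the same digest or homogenate. Their deviations from the group means correlated between -0.00 and 0.19 across genes, over 0.1 in 3 of 10 pairs of fractions. With 2 replicates these values cannot decide whether pairing matters. With a block within each preparation, 52 of 53 calls between fractions were kept. With a replicate block, calls for stabilized against WT GFP-positive cells numbered 2 in the anterior and 5 in the posterior pituitary, and 1 in the 4 other tissue comparisons, and the block moved no other count past 1.5 times. With the block, WT cerebellum had 6 calls, stabilized cerebellum 5, WT anterior and posterior pituitary 4 each, stabilized lobes 0, cortex 9 in each genotype, and choroid plexus 7 in WT and 8 in stabilized mice.

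With 1 library left out, calls ranged from 5 to 6 in WT and 3 to 5 in stabilized cerebellum fractions, 1 to 5 in WT and 0 to 0 in stabilized anterior pituitary, 1 to 4 in WT and 0 to 0 in stabilized posterior pituitary, 9 to 9 in cortex, 6 to 7 in WT and 5 to 9 in stabilized choroid plexus. They ranged from 1 to 5 and 2 to 5 for the anterior and posterior genotypes, 1 to 1 and 2 to 4 for GFP-negative cerebellum against the lobes, 8 to 9 in bound and 4 to 5 in input RNA of WT cortex against choroid plexus, 3 to 7 for the cortex-minus-choroid plexus difference, 0 to 2 in the other genotype and tissue comparisons and 0 to 3 in the other differences.

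Peaks of both replicates, at 2 of the 9 genes in the stabilized anterior pituitary, were at 0 with a fold enrichment over 4 and -log10 q over 5 and at 5 within 5 kb. Within 5 kb they were also at 3 genes in the stabilized posterior and at 3 in the WT anterior pituitary (0 each within 1 kb). With 1 replicate left out, peaks were at 2 to 3 genes in the stabilized anterior, 0 to 5 in the stabilized posterior pituitary and 0 to 0 elsewhere.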
